A study of Mus musculus with 12 samples.

Results

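Liver sinusoidal endothelial genes are described here as a group of 10: Vegfa, Kdr, Flt1, Tek, Stab2, Lyve1, Clec4g, Oit3, Pecam1 and Vwf. They were chosen by symbol, and their probes were found through the RefSeq accession that the array files give for each probe. All 10 were among the 16915 genes tested. Livers of male C57BL/6 mice aged 30 weeks were compared between 2 genotypes, with 6 mice in each. LKO mice lacked Phgdh, the first enzyme of the phosphorylated pathway of serine synthesis, in hepatocytes (Alb-Cre; Phgdh flox/flox). Floxed mice were littermates that carried the Phgdh flox/flox alleles without the Cre. The Alb promoter drives the Cre in hepatocytes, so the endothelial cells of LKO livers are not its target. Both genotypes had the same laboratory chow with 20% casein and free access to water.

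Sinusoids are the capillaries of the liver, and the endothelial cells that line them are perforated by fenestrae and lack a continuous basement membrane. These cells take up waste macromolecules through scavenger receptors and lectins. Hepatocytes secrete VEGF-A, encoded by Vegfa, which binds the receptors VEGFR2 (Kdr) and VEGFR1 (Flt1) on endothelial cells and helps to keep the sinusoids fenestrated. Angiopoietins act on endothelial cells through a separate receptor, Tie2, encoded by Tek. Pecam1 and Vwf encode an adhesion molecule of endothelial junctions and a clotting protein of the endothelium, and both are typically more abundant in larger vessels than in sinusoids.

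The promoter windows of the ligand Vegfa and of its family of receptors are printed because the report turns on their relation. Each holds the 250 bases before the transcription start as RefSeq gives it for mouse assembly GRCm38.p6, on the strand of the gene, and the capitals mark every GGGCGG or its reverse complement CCGCCC, the core letters of the GC box. Vegfa lies on the minus strand at chr17:46032378-46032627, Kdr on the minus strand at chr5:75978456-75978705, Flt1 on the minus strand at chr5:147726012-147726261 and Flt4, the receptor VEGFR3, on the plus strand at chr11:49609429-49609678. RefSeq lists 2 windows for Vegfa, of which 1 is shown.
Vegfa: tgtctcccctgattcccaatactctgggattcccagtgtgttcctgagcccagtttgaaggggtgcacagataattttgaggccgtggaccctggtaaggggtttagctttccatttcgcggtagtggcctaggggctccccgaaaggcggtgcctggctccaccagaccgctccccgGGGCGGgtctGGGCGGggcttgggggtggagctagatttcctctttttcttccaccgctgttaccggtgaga
Kdr: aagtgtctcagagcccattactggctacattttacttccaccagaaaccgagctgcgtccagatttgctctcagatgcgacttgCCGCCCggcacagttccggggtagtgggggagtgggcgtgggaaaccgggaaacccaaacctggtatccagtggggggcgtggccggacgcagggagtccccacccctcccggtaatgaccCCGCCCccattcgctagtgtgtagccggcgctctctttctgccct
Flt1: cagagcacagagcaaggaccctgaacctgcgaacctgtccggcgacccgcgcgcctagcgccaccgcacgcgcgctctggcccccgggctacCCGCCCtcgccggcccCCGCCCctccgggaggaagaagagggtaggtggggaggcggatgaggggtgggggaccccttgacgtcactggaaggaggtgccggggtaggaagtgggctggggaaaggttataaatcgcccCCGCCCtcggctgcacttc
Flt4: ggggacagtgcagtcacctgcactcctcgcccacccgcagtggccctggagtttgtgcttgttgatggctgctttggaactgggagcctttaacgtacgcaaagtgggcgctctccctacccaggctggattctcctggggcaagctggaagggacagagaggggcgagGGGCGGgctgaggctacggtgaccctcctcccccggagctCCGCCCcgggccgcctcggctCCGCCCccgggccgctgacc
The GC box letters occurred 2 times in the window of Vegfa, 2 times in that of Kdr and 3 times each in those of Flt1 and Flt4. On either strand, 32.7% of all 32851 RefSeq windows of this length held at least 1. ACGTG, the core letters of the hypoxia response element, was in none of the 4 windows and in 16.6% of all windows. AGGAAG, a core of ETS factor sites, occurred 2 times in the Flt1 window, in none of the other 3, and in 29.5% of all windows. These matches describe letters in the windows and are not evidence of binding.

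RNA of each liver was labelled with 1 dye and hybridised to its own Agilent array, and the arrays lay on 3 slides of 4. Slide 1 held Floxed 1 to 4, slide 2 held Floxed 5 and 6 with LKO 1 and 2, and slide 3 held LKO 3 to 6, so that slide 2 alone held both genotypes. From 21614 to 24252 probes per array were well above background. The log2 intensity of a probe for Phgdh, the deleted gene, ran from 4.81 to 5.50 among Floxed mice. The mice labelled LKO 1 and LKO 2 fell inside that range, at 5.07 and 5.30, while the other 4 lay below it, at 4.23 to 4.66. Whether this probe lies inside the deleted part was not analysed here. The first principal component held 29.0% of the variance, and the array of LKO 5 stood farthest out on it with a score of 48.1, against scores from -30.5 to 27.9 for the others. Floxed 4 had the lowest score. The 75th percentile of intensity before normalization was lowest on the array of LKO 5, at 239, and highest on that of Floxed 4, at 473. The part of array intensity in the values of single mice was not tested. Every difference within slide 2, and every fit with slide as a fixed block, rests on LKO 1 and LKO 2 as its LKO mice there, so a doubt about their labels is a doubt about those values. Values without both mice are given for Vegfa, Flt4, Stab2, Lyve1 and Pecam1, and for the count of called genes. Differences within slide 2 cannot be given without them.

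Of the 10 genes of the group, Vegfa was lower and Pecam1 higher in LKO livers, and the other 8 did not pass the test. Neither called gene is particular to sinusoidal endothelium, as hepatocytes secrete VEGF-A and Pecam1 is typically more abundant in larger vessels. All 12 probes of these genes were well above background on all 12 arrays. A gene was called where the limma p was below 0.05 before adjustment, the criterion of the study. By that criterion 8.35% of all genes were called, with 3.43% lower and 4.92% higher in LKO mice, against 1 lower and 1 higher of these 10. After Benjamini-Hochberg adjustment over all genes limma called 0 of 16915, and the smallest adjusted p was 0.132. Among the 10, 4 log2 fold changes (LKO minus Floxed, each given with its standard error, SE, from limma) were above 0 and 6 below, with a median of -0.011, where the median over all genes was -0.003. In RNA of whole liver, a change in the number of endothelial cells and a change in RNA per endothelial cell cannot be told apart. Which liver cells the Vegfa RNA came from was not analysed.

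**Figure D1:**
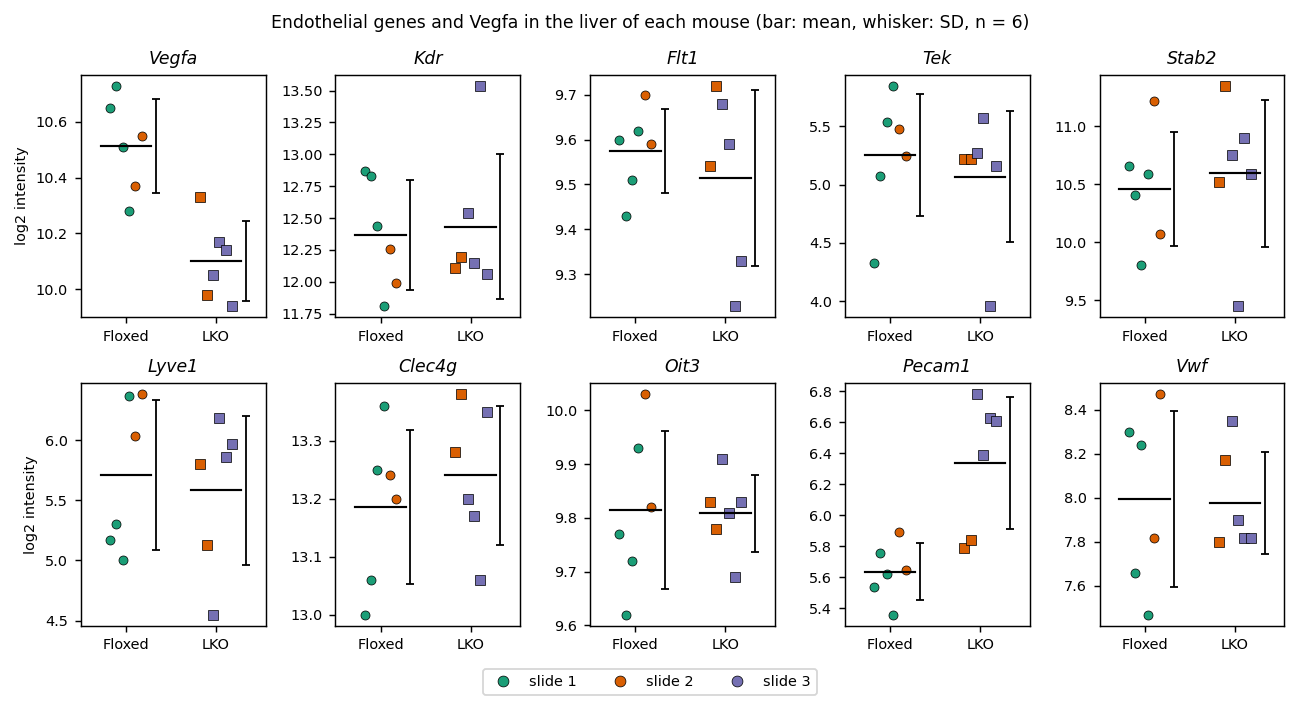
Log2 intensity of the 10 genes of the group in each mouse, by genotype and coloured by slide, with the mean as a bar and the SD as a whisker (n = 6 per genotype). Vegfa values of 5 LKO mice lie below every Floxed value, the 4 LKO mice of slide 3 are above every Floxed mouse for Pecam1, and the genotypes overlap widely for the other 8 genes.

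Vegfa, the ligand, was read by 2 probes that gave different results. On the brighter probe, designed on RefSeq NM_001025257, the log2 intensities of Floxed mice 1 to 6 were 10.65, 10.73, 10.51, 10.28, 10.37 and 10.55, and those of LKO mice 1 to 6 were 10.33, 9.98, 10.05, 10.17, 10.14 and 9.94. All LKO values except that of LKO 1 lay below the lowest Floxed value, that of Floxed 4. This is a log2 fold change of -0.42 (SE 0.10, 95% interval -0.62 to -0.21), or 0.749-fold. Exact permutation, two-sided, gave p = 0.00433 (limma p = 0.000803, adjusted p = 0.257), and 0.00216 is the smallest p that 6 against 6 mice allow. Within slide 2, which held 2 mice of each genotype, the difference was -0.31, and Vegfa was not called in a fit with slide as a fixed block. Without the mice labelled LKO 1 and LKO 2 the difference was -0.44 and was called.

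The dimmer Vegfa probe, designed on NM_001025250, did not differ by the test. Its log2 intensities were 9.44, 9.41, 9.70, 10.05, 9.89 and 9.97 in Floxed mice 1 to 6 and 10.16, 9.64, 9.36, 9.95, 9.13 and 9.69 in LKO mice 1 to 6. The genotypes overlapped on this probe, with LKO 1 the highest and LKO 5 the lowest of all 12 mice. LKO and Floxed means differed by -0.09 (SE 0.17, 95% interval -0.46 to 0.29, exact permutation p = 0.647). The call for Vegfa therefore rests on 1 of its 2 probes, and the intervals of the 2 differences overlap. With the 2 probes averaged the log2 fold change was -0.25 and was called. Over the 12 mice the 2 probes had a correlation of r = 0.04. Which transcripts of Vegfa each probe reads was not analysed here.

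**Figure D2:**
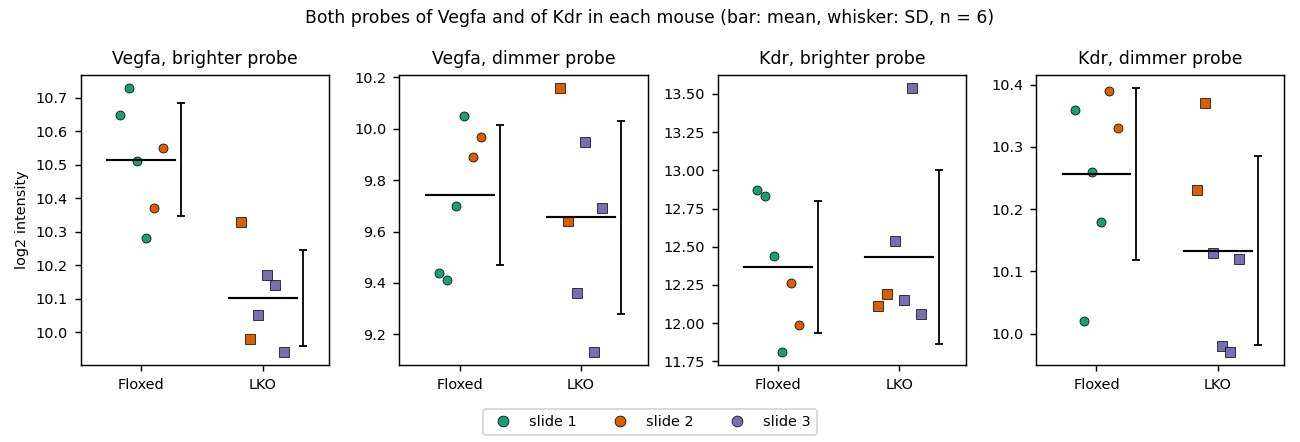
Log2 intensity of both probes of Vegfa and both probes of Kdr in each mouse, by genotype and coloured by slide, with the mean as a bar and the SD as a whisker (n = 6 per genotype). The genotypes separate on the brighter Vegfa probe for all but LKO 1 and overlap on the dimmer one, and LKO 5 stands apart at 13.54 on the brighter Kdr probe only.

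The other VEGF ligands did not pass the test. Vegfb, a ligand of VEGFR1, was at 0.14 on the log2 scale (SE 0.10), and placental growth factor, Pgf, had 0.09 (SE 0.25). For the ligands of VEGFR3 the values were 0.03 (SE 0.08) for Vegfc and -0.26 (SE 0.22) for Vegfd. Vegfa was thus the only one of the 5 ligands that was called.

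Kdr encodes VEGFR2, the main signalling receptor for VEGF-A. On the brighter of its 2 probes the log2 intensities were 12.87, 12.83, 12.44, 11.81, 12.26 and 11.99 in Floxed mice 1 to 6 and 12.11, 12.19, 12.54, 12.15, 13.54 and 12.06 in LKO mice 1 to 6. LKO 5 was above every other mouse and the remaining 5 LKO mice lay within the Floxed range. On this probe the log2 fold change was 0.06 (SE 0.26, 95% interval -0.50 to 0.63, exact permutation p = 0.840), and it turned to -0.16 without LKO 5. On the dimmer probe, which was averaged over 10 spots where the brighter one had 1, Floxed values ran from 10.02 to 10.39 with a median of 10.30 and LKO values from 9.97 to 10.37 with a median of 10.12. LKO 5 was the lowest of all mice there, at 9.97. There the difference was -0.12 (SE 0.09, 95% interval -0.32 to 0.07, exact permutation p = 0.167). The correlation of the 2 Kdr probes over the 12 mice was r = -0.38, so the order of the mice in Kdr depended on the probe.

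Flt1 encodes VEGFR1, which binds VEGF-A tightly and signals weakly. Its log2 intensities were 9.60, 9.43, 9.51, 9.62, 9.70 and 9.59 in Floxed mice 1 to 6 and 9.54, 9.72, 9.68, 9.59, 9.23 and 9.33 in LKO mice 1 to 6. LKO 5 and LKO 6 lay below all Floxed mice and LKO 2 above all of them. Flt1 thus had a difference of -0.06 (SE 0.09, 95% interval -0.26 to 0.14, exact permutation p = 0.530). Nrp1, the co-receptor neuropilin 1, ran from 6.61 to 7.39 in Floxed mice (median 7.13) and from 5.96 to 7.37 in LKO mice (median 7.06), a difference of -0.23 (SE 0.22). Its lowest value, 5.96, was that of LKO 5, and the difference was -0.04 without that mouse. For Nrp2 it was 0.16 (SE 0.09), and neither neuropilin was called.

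Flt4 encodes VEGFR3, the receptor of VEGF-C and VEGF-D, which sinusoidal as well as lymphatic endothelial cells express. It was the only VEGF receptor of 5 that was called. Its probe was dim, at percentile 6.95 of mean intensity among the genes tested. Its log2 intensities were 4.97, 5.07, 5.22, 4.84, 4.99 and 5.13 in Floxed mice 1 to 6 and 4.75, 4.56, 4.85, 4.41, 4.51 and 4.64 in LKO mice 1 to 6. Every LKO value except that of LKO 3 lay below the lowest Floxed value. Its log2 fold change was -0.42 (SE 0.09), or 0.749-fold, with an exact permutation p = 0.00433 (limma p = 0.000579, adjusted p = 0.257). The difference was -0.40 within slide 2, and Flt4 was still called with slide as a fixed block and without the mice labelled LKO 1 and LKO 2 (log2 fold change -0.44). The size depended on the processing, with -0.28 under 75th percentile scaling and -0.15 under normexp background correction, both called. Of the other tested genes listed as lymphatic markers, Prox1 was at -0.36, Reln at -0.37 and Lyve1 at -0.13, and none was called. Reln was also listed with the stellate genes and Lyve1 with the sinusoidal ones. Which cells of the liver these values come from was not analysed.

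Vegfa was then related to its receptors across the mice, with 3 relations in the family and the brighter probe of each gene. With Kdr, Pearson's r was 0.18 (permutation p = 0.574) and Spearman's rho 0.22 (p = 0.499) over 12 mice. With Flt1, r was 0.03 (permutation p = 0.934) and rho -0.10 (p = 0.748), and with Nrp1, r was 0.09 (permutation p = 0.790) and rho -0.06 (p = 0.869). No relation passed over the 12 mice, and the adjusted p was 0.934 for all 3 values of r. Without LKO 5 alone, the r of Vegfa with Kdr was 0.51 (permutation p = 0.108). Without Floxed 2 and LKO 6, the mice farthest from the median of Vegfa, the values of r were -0.05 for Kdr, -0.06 for Flt1 and 0.40 for Nrp1. Against the r of Vegfa with each of 12508 named genes, Kdr stood at percentile 72.0, Flt1 at 54.1 and Nrp1 at 61.7, so that all 3 lay in the middle of the distribution.

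Within the 6 Floxed mice, Vegfa and Kdr had r = 0.82 (exact permutation p = 0.0417, adjusted p = 0.125 over the 3 relations) and rho = 0.77 (exact p = 0.103). Within the 6 LKO mice r was 0.09 (exact permutation p = 0.836). The difference between the genotypes was not tested. In Floxed mice Flt1 had r = -0.71 (exact permutation p = 0.111) and Nrp1 r = -0.48 (exact permutation p = 0.371) with Vegfa. The relation of Vegfa to Kdr depended on the probes: with the dimmer Kdr probe, r within Floxed mice was -0.32 (exact permutation p = 0.547), and with the dimmer Vegfa probe against the brighter Kdr probe, r over 12 mice was -0.87 (permutation p = 6e-05). That choice of probe was made after the values were seen. The brighter Kdr probe was highest, at 13.54, on the array of LKO 5, which had the lowest 75th percentile of intensity, 239. It was lowest, at 11.81, on that of Floxed 4, which had the highest, 473. On these arrays the dimmer Vegfa probe read 9.13 and 10.05. The part of array intensity in these relations was not tested.

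Flt4 was the receptor most like Vegfa, with r = 0.77 (permutation p = 0.00465) and rho = 0.74 (p = 0.00751) over 12 mice, which put it at percentile 99.7 of the 12508 genes. It was added to the relations because it was called, and both genes were lower in LKO mice. A high r over 12 mice follows in part from that choice. Within genotypes r was 0.47 in Floxed mice (exact permutation p = 0.347) and 0.03 in LKO mice (exact permutation p = 0.960), and with the genotype means removed it was 0.25 (permutation p = 0.436). The relation over 12 mice thus did not hold within either genotype.

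**Figure D3:**
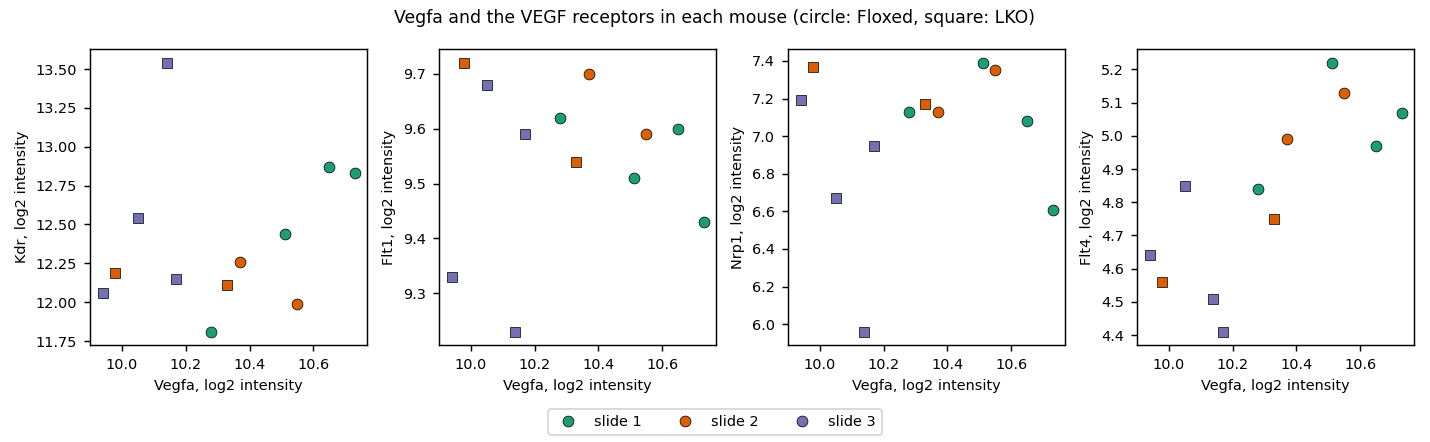
Log2 intensity of Vegfa (horizontal axis) against Kdr, Flt1, Nrp1 and Flt4 (vertical axes) in 12 mice, each on its brighter probe, with circles for Floxed and squares for LKO and the colour giving the slide. Kdr, Flt1 and Nrp1 show no common trend with Vegfa (r = 0.18, 0.03 and 0.09), and the Flt4 panel (r = 0.77) splits by genotype.

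Tek encodes Tie2, the receptor of the angiopoietins. Its probe was dim, at percentile 11.2 of mean intensity among the genes tested. Its log2 intensities were 4.33, 5.07, 5.54, 5.85, 5.48 and 5.25 in Floxed mice 1 to 6 and 5.22, 5.22, 5.27, 5.57, 3.96 and 5.16 in LKO mice 1 to 6. LKO 5 was the lowest mouse and the other 5 LKO mice lay within the Floxed range. Between genotypes Tek differed by -0.19 on the log2 scale (SE 0.28, 95% interval -0.80 to 0.42, exact permutation p = 0.535), and this was 0.03 without LKO 5. Of the angiopoietin genes, Angpt2, an antagonist of Tie2 in many settings, had 0.17 (SE 0.18), the related receptor Tie1 had -0.14 (SE 0.14) and the phosphatase Ptprb had -0.17 (SE 0.10). None of these 4 was called, and Angpt1 did not pass the filter on dim probes.

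Stab2, Lyve1, Clec4g and Oit3 mark the sinusoidal endothelium itself, and none differed between the genotypes by the test. Stab2 encodes stabilin 2, the scavenger receptor that clears hyaluronan. Its log2 intensity ran from 9.80 to 11.22 in Floxed mice (median 10.50) and from 9.45 to 11.35 in LKO mice (median 10.67). Stab2 had a log2 fold change of 0.14 (SE 0.29, 95% interval -0.50 to 0.77, exact permutation p = 0.686), and it was -0.03 without the mice labelled LKO 1 and LKO 2. The paralog stabilin 1, Stab1, was at -0.01 (SE 0.09).

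Lyve1, a hyaluronan receptor of sinusoidal and lymphatic endothelium, varied widely between mice of the same genotype. Its probe stood at percentile 17.2 of mean intensity among the genes tested. Its log2 intensities were 5.17, 5.30, 6.37, 6.03 and 6.38 in Floxed mice 1, 2, 4, 5 and 6, with Floxed 3 lower still, and 5.80, 5.13, 4.55, 6.18, 5.86 and 5.97 in LKO mice 1 to 6. Floxed 1 to 3 lay below Floxed 4 to 6, and the LKO mice spread over nearly the same range. For Lyve1 the log2 fold change was -0.13 (SE 0.32, 95% interval -0.82 to 0.56, exact permutation p = 0.732), with -0.74 within slide 2. Without the mice labelled LKO 1 and LKO 2 it was -0.07.

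Clec4g, the C-type lectin LSECtin, ran from 13.00 to 13.36 in Floxed mice (median 13.22) and from 13.06 to 13.38 in LKO mice (median 13.24). Its log2 fold change was 0.06 (SE 0.08, 95% interval -0.13 to 0.24, exact permutation p = 0.457). Oit3 ran from 9.62 to 10.03 in Floxed mice (median 9.79) and from 9.69 to 9.91 in LKO mice (median 9.82), a difference of -0.01 (SE 0.08, 95% interval -0.18 to 0.16, exact permutation p = 0.918). All 6 LKO mice lay within the Floxed range for Oit3. The intervals of Clec4g and Oit3 exclude changes larger than 0.24 in either direction on the log2 scale, while those of Stab2 and Lyve1 allow changes of more than 0.5.

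Pecam1, the junction molecule CD31, was the member that was higher in LKO mice. Its probe stood at percentile 21.6 of mean intensity among the genes tested. Its log2 intensities were 5.54, 5.76, 5.62, 5.36, 5.89 and 5.65 in Floxed mice 1 to 6 and 5.79, 5.84, 6.78, 6.39, 6.63 and 6.61 in LKO mice 1 to 6. The 4 LKO mice of slide 3 were above every Floxed mouse, and LKO 1 and LKO 2 of slide 2 lay within the Floxed range. Pecam1 had a log2 fold change of 0.70 (SE 0.18, 95% interval 0.32 to 1.08), or 1.63-fold, with an exact permutation p = 0.00866 (limma p = 0.00150, adjusted p = 0.273). Within slide 2 the difference was 0.04, and LKO mice of slide 3 exceeded those of slide 2 by 0.79. With slide as a fixed block the log2 fold change was 0.04 and Pecam1 was not called, and without the mice labelled LKO 1 and LKO 2 it was 0.97. With normexp background correction it was 0.39 and was called. The Pecam1 values had r = 0.79 with the first principal component of all genes, and the part of that axis in the difference was not tested.

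Vwf, von Willebrand factor, showed no such difference. Its log2 intensity ran from 7.47 to 8.47 in Floxed mice (median 8.03) and from 7.80 to 8.35 in LKO mice (median 7.86), with every LKO value inside the Floxed range. Vwf thus differed by -0.01 (SE 0.17, 95% interval -0.39 to 0.36, exact permutation p = 0.939). Of the 12 pan-endothelial genes tested, among them Cdh5 at -0.04, Esam at 0.01 and Cldn5 at -0.02, Pecam1 was the only one called.

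The 10 genes did not move together across mice. Over their 45 pairs, r ran from -0.85 to 0.68 with a median of -0.02, and 22 pairs were above 0. Permutation p-values adjusted over the pairs were below 0.05 for 2 pairs, Kdr with Tek (r = -0.85, adjusted p = 0.0396) and Kdr with Clec4g (r = -0.78, adjusted p = 0.0448), both with the brighter Kdr probe. By rank these were weaker, with rho = -0.55 and -0.66 and an adjusted p of 0.419 each. Without LKO 5 and Floxed 1, the mice farthest out in Kdr, r was -0.47 for Kdr with Tek and -0.69 for Kdr with Clec4g, so the relation to Tek rests on those mice. Among the 4 sinusoidal markers Stab2, Lyve1, Clec4g and Oit3, the 6 values of r lay between -0.20 and 0.49. Kdr (r = 0.78) and Tek (r = -0.67) also followed the first principal component of all genes, on which LKO 5 stood apart. Kdr was highest and Tek lowest on the array of LKO 5, which had the lowest 75th percentile of intensity, 239. On the array of Floxed 4, which had the highest, 473, Kdr was lowest and Tek highest. Clec4g was at 13.06 in LKO 5 and 13.36 in Floxed 4. The part of array intensity in these pairs was not tested.

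**Figure D4:**
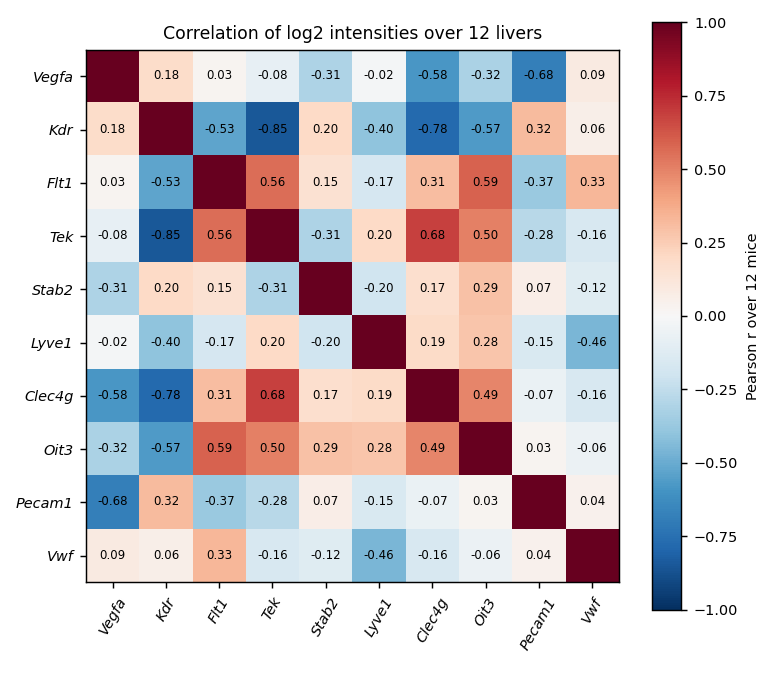
Pearson correlation of log2 intensity over 12 mice for each pair of the 10 genes, from -1 (blue) to 1 (red), on the brighter probe of each gene. Kdr is opposite to Tek (-0.85) and Clec4g (-0.78), Pecam1 is opposite to Vegfa (-0.68), and the strongest positive pair is Tek with Clec4g (0.68).

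Wider lists of endothelial and vascular genes were described by counts beside those over all genes. Without the 10 members, 61 genes of these 8 lists were tested, of which 43 had a log2 fold change below 0 and 18 above, with a median of -0.074, against 8658 below and 8257 above over all genes. Within slide 2 the 61 split into 32 below 0 and 29 above. Called were 5 of the 61, or 8.20%, near the 8.35% over all genes. All 5 were lower in LKO mice, the direction of 3.43% of all genes. Besides Flt4 these were Hhex (log2 fold change -0.82, SE 0.29) and Maf (-0.26, SE 0.11), both transcription factors, the Notch ligand Jag1 (-0.39, SE 0.14) and the arterial ephrin Efnb2 (-0.42, SE 0.18). Hhex is also expressed by hepatocytes. All 13 endothelial transcription factors tested had a log2 fold change below 0, from -0.82 to -0.01, but within slide 2 this split was 7 above 0 and 6 below, with Lmo2 at 0.31 and Klf2 at 0.25. With slide as a fixed block none of Hhex, Maf, Jag1 and Efnb2 was called. Exact permutation gave p = 0.0346 for Hhex, 0.0519 for Maf, 0.0152 for Jag1 and 0.0671 for Efnb2. In the same order, their r with the first principal component of all genes was -0.22, -0.74, -0.73 and -0.88. Their percentiles of mean intensity among the genes tested were 77.4, 53.1, 12.4 and 7.50, so the Jag1 and Efnb2 probes were dim.

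**Figure D5:**
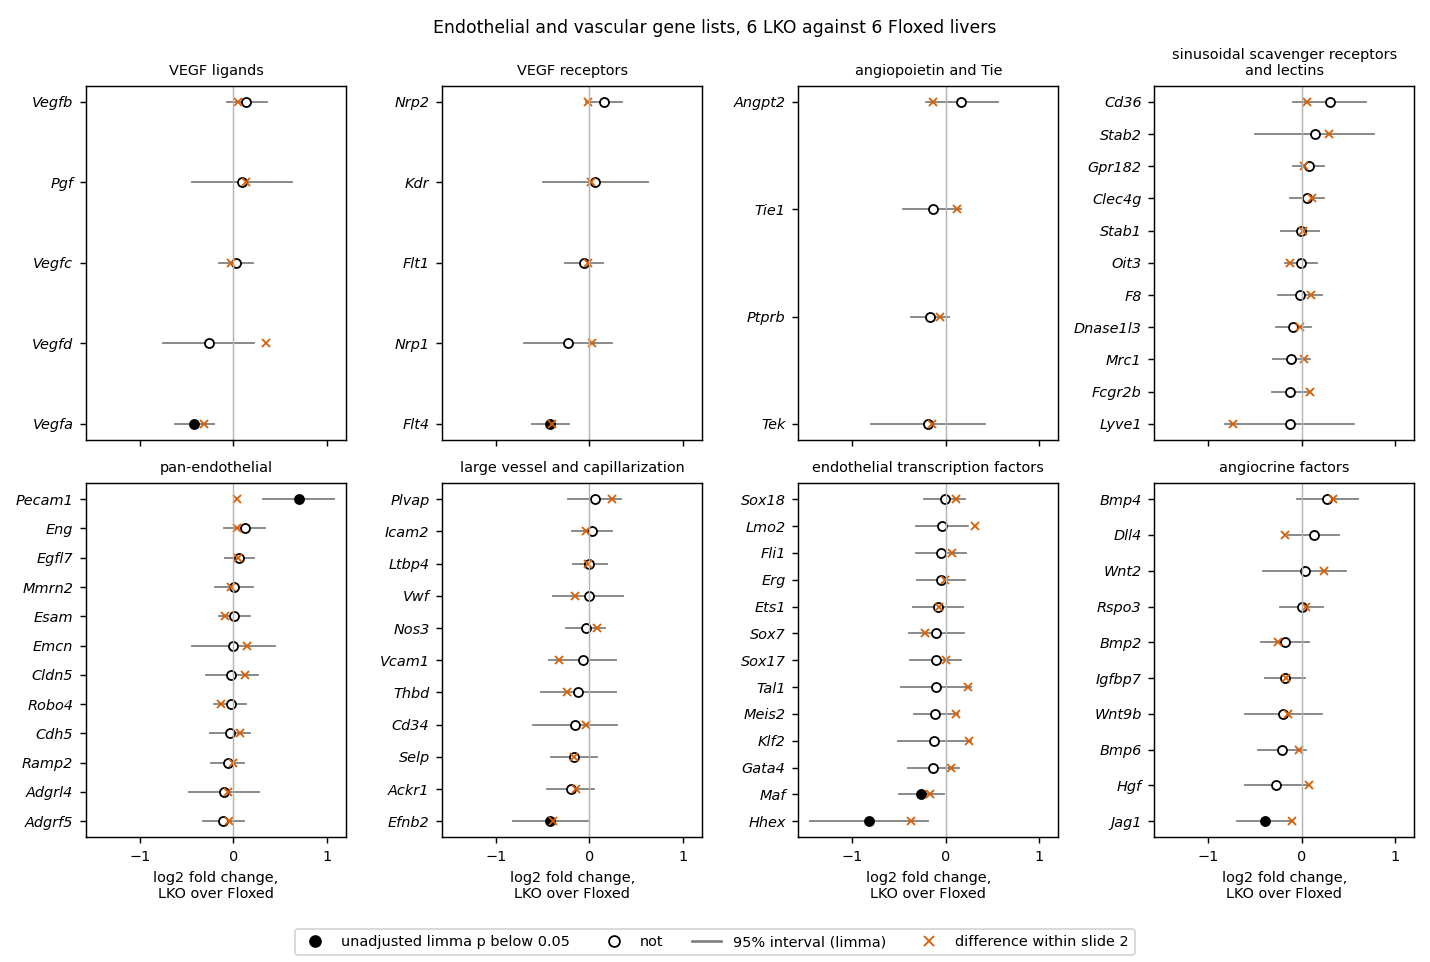
Log2 fold change (LKO minus Floxed) of every tested gene of the 8 endothelial and vascular gene lists, with 95% limma intervals as lines. Filled circles are called genes, open circles are genes not called, and crosses give the difference within slide 2. Most genes lie within 0.4 of 0, the called genes are mostly below 0, and Pecam1 at 0.70 stands alone among the pan-endothelial genes.

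Genes downstream and upstream of VEGF signalling were compared as well. Of 13 tested genes of VEGF signal transduction, 5 had a log2 fold change above 0 and 8 below. Sh2d2a, an adaptor protein that binds VEGFR2 and is also abundant in T cells, was the 1 called, at 0.60 (SE 0.27), and its difference within slide 2 was 0.10. Its exact permutation p was 0.0736, and its r with the first principal component of all genes was 0.83. The Sh2d2a probe was dim, at percentile 13.6 of mean intensity. Of 13 tested hypoxia-inducible factors and targets, the class of genes to which Vegfa itself belongs, 0 were called by limma at the unadjusted threshold. Hif1a was at -0.15 (SE 0.14, exact permutation p = 0.346, adjusted p = 0.919). The glucose transporter Slc2a1 was at 0.35 (SE 0.17, exact permutation p = 0.0931, adjusted p = 0.634). Ankrd37 was at -0.52 (SE 0.24, exact permutation p = 0.0952, adjusted p = 0.600). Of the 13, Ankrd37 and Slc2a1 came nearest to the unadjusted limma threshold, in opposite directions.

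Markers of other liver cells were tested in the same fit. None was called among 8 hepatocyte, 9 Kupffer and macrophage, 11 stellate and mural, 3 cholangiocyte, 5 lymphocyte and 3 blood markers. Of the hepatocyte markers 7 could have been called, because Serpina1a had the same normalized value, the top of the scale, on all 12 arrays. All 9 Kupffer and macrophage markers had a log2 fold change below 0, from -0.46 to -0.02, but within slide 2 the difference was above 0 for 8 of the 9. Of the platelet genes Gp1bb was lower (-0.40, SE 0.15) and Pf4 was at -0.11, and Gp1bb stood at 0.08 within slide 2. The Gp1bb probe was dim, at percentile 2.01 of mean intensity. The defining sinusoidal markers Stab2, Lyve1, Clec4g, Oit3, Stab1, Fcgr2b, Gpr182 and Dnase1l3 were all well above background on all 12 arrays, with log2 fold changes from -0.13 to 0.14. Averaged over these 8 markers, the deviation from the mean of all mice ran from -0.15 to 0.17 in Floxed and from -0.15 to 0.12 in LKO mice.

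Across the 12 mice, genes whose intensity was among the most like that of Vegfa were Gm13547 (r = 0.91) and Nupl1 (r = 0.90). The most opposite were Ugt3a1 (r = -0.95), Prdm11 (r = -0.87) and Olfr1030 (r = -0.87). These come from the ends of a ranking of 12508 genes on the brighter Vegfa probe and are given as a description. With the genotype means removed, r was 0.89 for Gm13547, 0.86 for Nupl1, -0.84 for Ugt3a1, -0.57 for Prdm11 and -0.73 for Olfr1030. No endothelial gene of the 10 was near the upper end. Pecam1 (r = -0.68) stood at percentile 0.776 and Clec4g (r = -0.58) at 2.65, near the lower end. With the genotype means removed these were -0.14 for Pecam1, a gene called in the direction opposite to Vegfa, and -0.70 for Clec4g.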

How the data were processed

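Liver RNA of 6 Floxed and 6 LKO mice was measured on 12 one-colour Agilent arrays. The authors deposited for each array the scanner software's intensity of every spot, background-corrected but without normalization between arrays. They also deposited quantile-normalized intensity values per probe. All 39429 rows of that table matched a probe, and 99.9% of its values lay within 0.1 (log2) of those computed here. The file headers name Feature Extraction 10.7.1.1 and the submitters' processing notes 9.5.1.1. The study's methods and the labels name different RNA kits.

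Control spots were left out, and log2 values of the processed intensity were quantile-normalized across arrays. Outlier spots (0.298%) were then set to missing and the spots of a probe averaged. Detection p-values, on which the methods filtered, were not used here. Probes passed if at least 0.5 of their spots were well above background on all 12 arrays (20404 probes). Genes were named by matching RefSeq accessions to a gene table of GRCm38.p6 (94.3% of accessions matched), and a gene was represented by its brightest probe, which gave 16915 genes with an estimate. The array was designed on another build, so probe coordinates are not given. Levels of different probes were not compared, apart from the percentiles of mean intensity given for some genes.

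Genotypes were compared with limma 3.58.1 in R 4.3.3 (lmFit and eBayes, no covariates) at an unadjusted p below 0.05, after the study's methods, with Benjamini-Hochberg adjusted p-values over all genes. For single genes, an exact permutation test (two-sided) ran over 924 arrangements of the mice. Correlations used 1e+05 permutations for 12 mice and all pairings for 6. The code was tested on simulated data. Alternatives covered normalization, background correction, the authors' table, filters, outliers, probes, threshold, test, slide, replicate number and each mouse left out. The dimmer Vegfa and Kdr probes, the rows on Flt4, Nrp1 and Stab1, and leaving out LKO 1 and LKO 2 were added after the values were seen. Named are the 10 members with every probe, Stab1, Nrp1, every called gene of the lists, and the 3 genes most and the 3 least like Vegfa, of which 1 is not reported here. Other genes named are list members given as values, chosen after their values were seen. The 10 genes and all lists were chosen with earlier results of these data known. The number of arrays limits the precision.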

Additional observations from a re-analysis of the deposited data

Results flagged for a closer look

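In 3 of 38 groups of 6 mice, the highest or lowest mouse stood farther from the rest than the 95% limit of Dixon's test allows, where chance alone gives 1.90 such groups. The log2 intensity of Kdr was 13.54 in LKO 5, on the brighter probe. The same mouse had the lowest Tek value, 3.96, and its array had the lowest 75th percentile of intensity before normalization, 239. Efnb2 was 4.36 in Floxed 2, the lowest of the Floxed mice.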

How the results depend on the processing

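Vegfa on its brighter probe and Pecam1 kept their direction under every alternative, but with adjusted p-values (Vegfa at -0.42, adjusted p = 0.257) or with slide as a fixed block (Vegfa at -0.31) 0 of the 10 genes were called, and Vegfa was not called on its dimmer probe (-0.09). With each mouse left out, Vegfa ran from -0.46 to -0.37 and Pecam1 from 0.61 to 0.81, both called each time. Vegfa was -0.25 with its probes averaged, and with normexp Pecam1 was 0.39 and Flt4 -0.15. Over all genes, 1413 calls became 2791 without the filter on dim probes, 317 with slide as a fixed block, 0 after adjustment, 2172 without LKO 1 and LKO 2, and 1103 to 1837 with each mouse left out. Scaling to the 75th percentile raised the share of higher calls from 58.9% to 78.1%. Same-numbered mice carry neighbouring animal numbers in the labels, which name littermate controls but no litters. Their deviations correlated from -0.24 to 0.32, above 0.1 in 3 of 6 pairs, so pairing was not settled. With the replicate block 1428 genes and both Vegfa and Pecam1 were called, with Vegfa at -0.42.

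Signs changed among genes that were not called. Kdr was -0.03 with its probes averaged and -0.12 on the dimmer one, Lyve1 and Vwf were both 0.03 with normexp background correction, Nrp1 was 0.03 and Stab1 0.01 with slide as a fixed block, Oit3 was 0.00 with slide as a random block, and Stab2 was -0.03 without LKO 1 and LKO 2. With each mouse left out, Kdr ran from -0.16 to 0.16, Lyve1 from -0.27 to 0.08, Oit3 from -0.04 to 0.04, Stab1 from -0.06 to 0.04, Stab2 from -0.02 to 0.36, Tek from -0.38 to 0.03 and Vwf from -0.12 to 0.08.

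The r of Vegfa with Flt1 was -0.11 with normexp, -0.26 with genotype means and -0.26 with slide means removed, -0.06 without the 2 farthest mice and -0.21 to 0.20 with each mouse left out. With Kdr it was -0.45 with probes averaged, -0.87 with the dimmer Vegfa probe, -0.05 without the 2 farthest mice and 0.05 to 0.51 with each mouse left out, the highest without LKO 5. With Nrp1 it was -0.01 with 75th percentile scaling, -0.27 with genotype means and -0.36 with slide means removed, -0.12 to 0.29 with each mouse left out, and past the threshold at 0.59 with probes averaged and 0.70 with the dimmer Vegfa probe. The cause of these changes was not tested. All probes of the 10 genes were well above background. The number of mice, the slide layout and the disagreement between the probes of Vegfa and of Kdr limit what these values show.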
